A study of Mus musculus with 18 samples.

Results

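The 39 genes described here encode the actin filament, the proteins that crosslink, coat, contract and anchor it, and the transcription factor SRF with its coactivators, in 4T1 mouse breast cancer cells. They were taken from the count tables by symbol, and all 39 were found among 34591 gene symbols. SRF (serum response factor) binds a DNA element called the CArG box, and many genes of contractile and focal adhesion proteins carry it. The coactivators Mkl1 and Mkl2 (MRTF-A and MRTF-B) are held by monomeric actin and enter the nucleus when actin polymerises, so that the state of the filament feeds back on the genes that build it. TGFb1 is a textbook inducer of smooth muscle actin and stress fibres in fibroblasts and in epithelial cells that take on mesenchymal features.

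4T1 is a line derived from a mammary tumour of a BALB/c mouse, and polyadenylated RNA of 6 groups of 3 cultures each was sequenced with a stranded kit. Parental cells received 2 ng/mL recombinant human TGFb1 in fresh medium for 24 h, and their untreated counterparts received fresh medium alone for the same time. Whether that medium held serum, to which SRF responds, is not given in the labels. The other 4 groups came from lines made by lentiviral transduction and puromycin selection, carrying a Wisp1 vector (Wisp1, also named Ccn4, encodes a secreted matricellular protein) or the empty vector (EV). Each line was grown on dishes coated with collagen type I and on uncoated tissue culture plastic, and was harvested before confluence, at a time the labels do not state. Nothing in the labels says that the 3 cultures of a line came from separate transductions, so p-values measure the spread between these cultures.

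Between 37552858 and 94401699 counts per library fell on genes, and the 39 members took 1.54 to 2% of them. Replicates of a group correlated at 0.978 or above on the log2 scale across genes, and no pair agreed within counting noise. Wisp1 itself averaged 957 ± 95 CPM (counts scaled to library size with TMM factors; SD, n = 3) in the Wisp1 line, against 51.7 ± 18 CPM in the EV line, on plastic. On collagen it averaged 1090 ± 33 CPM in the Wisp1 line and 15.3 ± 1.1 CPM in the EV line. It averaged 425 ± 170 CPM after TGFb1 and 22.3 ± 16 CPM in untreated cells. The epithelial markers (Krt8, Krt18, Krt19, Epcam, Cdh1, Cldn7 and Esrp1) summed to between 2130 and 4710 CPM over the 18 libraries, with none of the 7 at 0 throughout a group.

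RefSeq (GRCm38.p6) gave a promoter of 300 bases, 250 before and 50 after the annotated start, for 36 of the 39 members, 2 of them (Mkl1 and Mkl2) under a newer symbol. The CArG box was searched as CCWWWWWWGG, where W is A or T, with no mismatch allowed. In that strict form it was present in at least 1 promoter of 9 of these 36 members (25%), namely Actg1, Vcl, Cnn2, Myl9, Myl6, Fhl1, Fhl2, Lima1 and Srf, and of 1.81% of all 27025 genes with a promoter. The members were picked as SRF target genes, so this share describes the choice of members. GGAATG, the core of the MCAT element bound by TEAD factors, was searched on both strands. It was found in 11 members (30.6%), Acta2, Actn4, Flna, Vcl, Tagln2, Tpm1, Cald1, Mylk, Myh10, Pfn1 and Mkl2, and in 16.6% of all genes. No CArG box overlapped a GGAATG in the members.

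The promoters of 4 members with a CArG box and of 2 with GGAATG whose transcripts are described further on are printed 5′ to 3′ on the strand of the gene, with the CArG boxes and GGAATG in capitals. The Srf promoter (chr17:46556113-46556412, minus strand) holds 2 CArG boxes, which begin 82 and 62 bases before its start. Actg1 (chr11:120348446-120348745, minus strand) and Cnn2 (chr10:79988350-79988649, plus strand) hold 1 each, at 90 and 56 bases before the start. Vcl (chr14:20929148-20929447, plus strand) holds a CArG box at 227 and a GGAATG at 143 bases before the start. Acta2 (chr19:34255324-34255623, minus strand) and Tpm1 (chr9:67049164-67049463, minus strand) hold GGAATG at 146 and 56 bases before the start. Neither holds a CArG box of the strict form in this window, which says nothing of elements elsewhere or of near matches. The Acta2 window does hold near matches, ccctatatgg and ccttgtttgg, each with a C or G among its middle bases. They were not counted, and binding of SRF to any of these promoters was not tested.
Srf: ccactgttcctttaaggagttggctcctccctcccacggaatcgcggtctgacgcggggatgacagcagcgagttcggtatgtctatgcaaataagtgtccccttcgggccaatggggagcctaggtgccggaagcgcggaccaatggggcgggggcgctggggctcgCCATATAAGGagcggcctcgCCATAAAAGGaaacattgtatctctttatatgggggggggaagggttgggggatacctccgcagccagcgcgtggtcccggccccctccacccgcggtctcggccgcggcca
Actg1: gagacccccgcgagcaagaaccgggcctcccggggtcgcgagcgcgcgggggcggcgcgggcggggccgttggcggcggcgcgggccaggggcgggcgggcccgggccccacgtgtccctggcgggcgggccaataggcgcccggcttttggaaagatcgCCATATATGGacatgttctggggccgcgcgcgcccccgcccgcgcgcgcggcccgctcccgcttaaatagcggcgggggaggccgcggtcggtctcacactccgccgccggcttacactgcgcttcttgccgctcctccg
Cnn2: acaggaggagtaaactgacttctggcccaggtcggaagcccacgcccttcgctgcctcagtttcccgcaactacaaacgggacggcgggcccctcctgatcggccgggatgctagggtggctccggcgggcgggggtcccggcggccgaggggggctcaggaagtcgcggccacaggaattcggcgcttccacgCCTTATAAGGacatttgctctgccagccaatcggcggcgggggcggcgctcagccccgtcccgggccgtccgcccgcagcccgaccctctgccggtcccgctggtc
Vcl: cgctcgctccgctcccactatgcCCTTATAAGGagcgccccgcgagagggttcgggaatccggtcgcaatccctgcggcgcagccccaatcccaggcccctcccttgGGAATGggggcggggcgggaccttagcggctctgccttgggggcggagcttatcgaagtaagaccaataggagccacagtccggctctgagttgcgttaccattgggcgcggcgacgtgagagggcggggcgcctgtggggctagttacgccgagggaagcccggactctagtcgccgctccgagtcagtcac
Acta2: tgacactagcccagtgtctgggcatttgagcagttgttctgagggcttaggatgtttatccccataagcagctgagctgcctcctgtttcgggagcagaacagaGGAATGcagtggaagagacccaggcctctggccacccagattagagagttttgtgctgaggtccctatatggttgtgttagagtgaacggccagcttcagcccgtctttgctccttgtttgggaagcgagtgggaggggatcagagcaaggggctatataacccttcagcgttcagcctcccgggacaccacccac
Tpm1: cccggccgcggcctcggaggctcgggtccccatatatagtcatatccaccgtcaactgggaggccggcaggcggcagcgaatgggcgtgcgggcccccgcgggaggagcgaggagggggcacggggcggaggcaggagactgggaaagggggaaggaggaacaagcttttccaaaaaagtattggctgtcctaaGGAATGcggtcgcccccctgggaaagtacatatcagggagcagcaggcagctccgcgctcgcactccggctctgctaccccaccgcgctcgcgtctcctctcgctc

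Most members were abundant, and a small set was nearly silent in every group. Smooth muscle genes of the list such as Cnn1 and Tagln were in that set. Acta2 had few counts in every group except after TGFb1, where it had 96 to 346 counts per library. Cnn1, the smooth muscle calponin, had 0 to 8 counts per library over all 18 libraries, and Myl9, the regulatory light chain of smooth muscle and non-muscle myosin, had 0 to 14. Tagln (SM22 alpha) had 4 to 39 counts and the LIM protein Fhl1 had 0 to 18. Cnn1 and Myl9 did not pass the filter on low counts in parental cells, which left 37 members tested, and Fhl1 also failed in the stable lines, which left 36. In bulk RNA a lower count from fewer cells expressing a gene and one from less RNA per cell cannot be told apart. The genes with close paralogs or processed pseudogenes (Actb, Actg1, Cfl1, Pfn1, Myl6, Tpm3 and Tagln2) are uncertain, because no source used here says how multiply aligned reads were counted, and counts per gene do not separate the isoforms of tropomyosins, caldesmon and alpha-actinin.

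**Figure D1:**
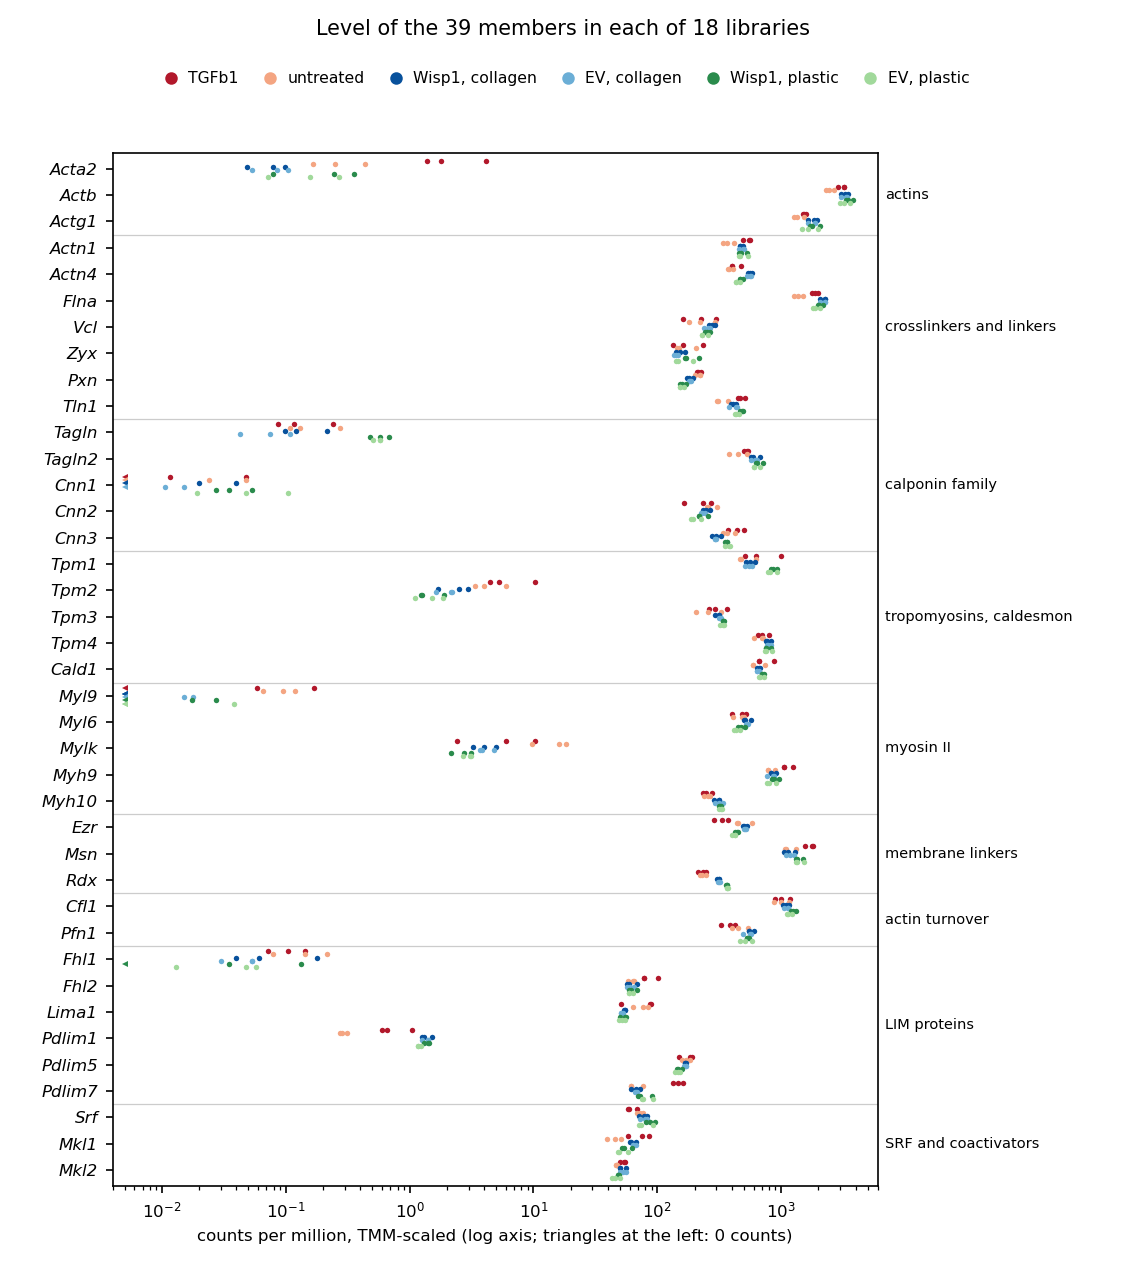
Each row is a member, ordered by role, and each point a library on a log axis of TMM-scaled CPM, coloured by group; triangles at the left edge mark libraries with 0 counts. Points are comparable along a row only, since CPM are not divided by gene length; Cnn1, Myl9, Fhl1 and Tagln stay below 1 CPM in all 18 libraries.

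Without pairing of the cultures, TGFb1 raised 7 members and lowered 0 by the edgeR quasi-likelihood test (Benjamini-Hochberg adjusted p under 0.05 over all 14874 genes tested). The 7 were Acta2, Pdlim1, Pdlim7, Msn, Tln1, Actn1 and Flna, that is smooth muscle actin, a pair of PDZ-LIM proteins of stress fibres, the membrane linker moesin, the integrin activator talin, and 2 crosslinkers. They are 18.9% of the 37 members tested, while 6.14% of all genes were called higher and 4.92% lower. The members were chosen with earlier results of these data known, and the shares over all genes are not matched for level. Shares of members beside shares of all genes, here and below, are thus a description and no test of the list. At an unadjusted p under 0.05 edgeR gave 11 members higher and 2 lower, where 12.8% of all genes were higher and 12.1% lower. At an adjusted p under 0.05 limma-voom called 7 members higher and 0 lower, and DESeq2 called 10 higher and 1 lower. The shares of all genes in those fits are not given here. Members called when a library was left out numbered 4 (untreated replicate 1), 1 (untreated replicate 2), 2 (untreated replicate 3), 2 (TGFb1 replicate 1), 1 (TGFb1 replicate 2) or 3 (TGFb1 replicate 3), all higher. All were among the 7, except that the third without TGFb1 replicate 3 was Mkl1. The median log2 change was 0.139 over the 37 members and -0.007 over all genes. Same-numbered cultures deviated together, so a second edgeR fit took the culture number as a block. The titles of same-numbered TGFb1 and untreated libraries also share a code, which the labels do not explain. All removals of a library for TGFb1, here and for single members below, were made without this block. It called 16 members higher and 5 lower, 43.2% and 13.5% of those tested, where 22.4% of all genes were called higher and 22.5% lower. The 16 are the 7 above with Actb, Cnn3, Tpm1, Tpm2, Tpm3, Cald1, Myh9, Fhl2 and Mkl1, and the 5 are Cnn2, Mylk, Ezr, Pfn1 and Srf.

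**Figure D2:**
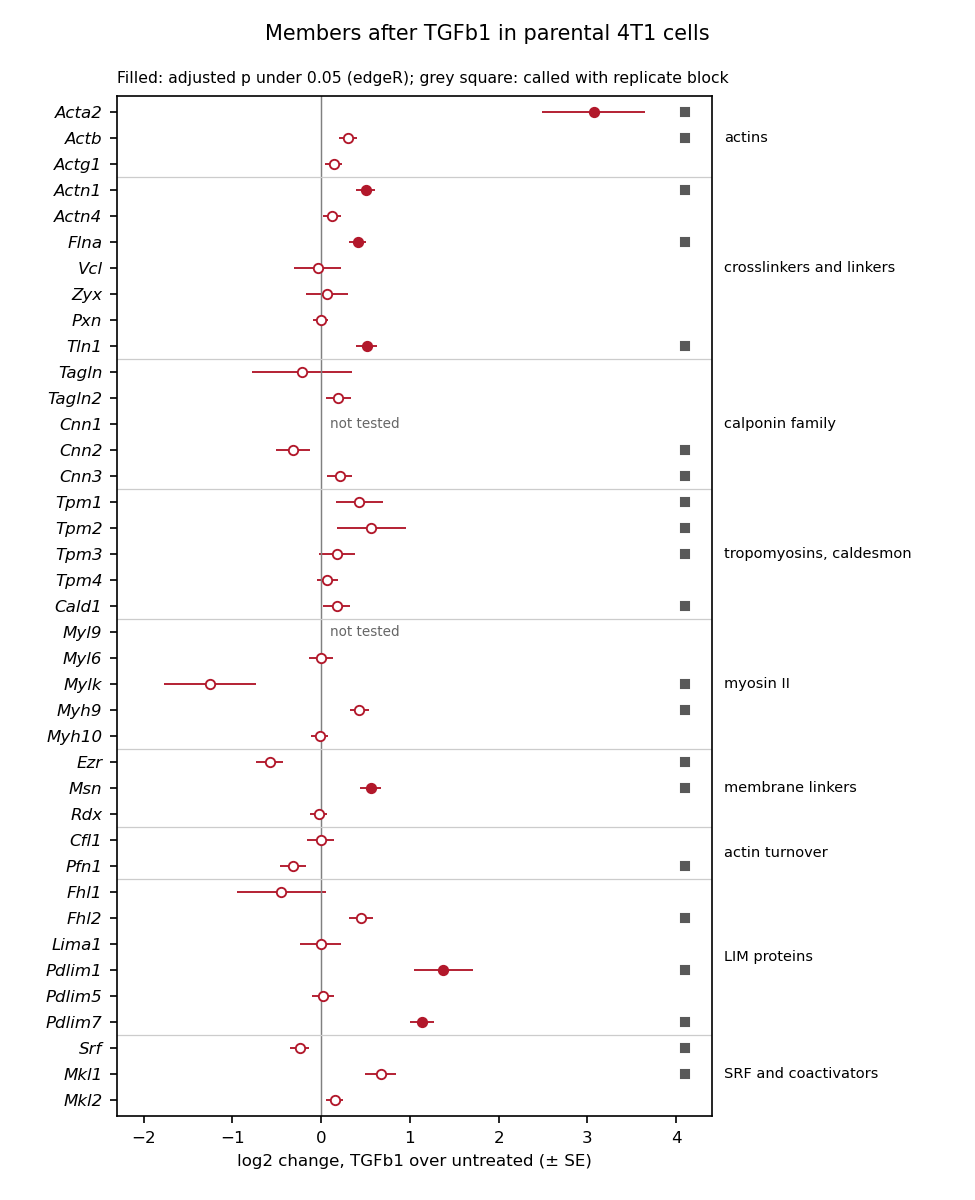
The log2 change of each member after TGFb1 over untreated cells, with its standard error from the edgeR fit; filled points passed an adjusted p of 0.05 and grey squares mark members called with the replicate block. Acta2 stands at 3.07, Pdlim1 at 1.38 and Pdlim7 at 1.14, and the lowest point is Mylk at -1.25.

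Among the actins, Acta2 had the largest change of the 37 members. It had 346, 152 and 96 counts in TGFb1 cultures (4.16, 1.78 and 1.38 CPM), against 37, 19 and 14 counts in untreated cultures (0.441, 0.249 and 0.167 CPM). The groups did not overlap, and the first culture was highest in each. The change was 8.39-fold (log2 3.07 ± 0.58 SE, adjusted p = 0.0221 by edgeR), and within pairs the log2 ratios were 3.24, 2.84 and 3.05. The call was lost without untreated replicate 2 (adjusted p = 0.111), untreated replicate 3 (0.0606) or TGFb1 replicate 2 (0.0646). Acta2 remained a rare transcript, at a mean of 2.44 ± 1.5 CPM after TGFb1 and 0.286 ± 0.14 CPM without it (SD, n = 3).

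The sum of markers of smooth muscle cells and pericytes was also higher after TGFb1, at low levels. The 8 genes of that list (Myh11, Des, Actg2, Lmod1, Myocd, Rgs5, Cspg4 and Pdgfrb) summed to 1.79 to 2.86 CPM in TGFb1 libraries, against 0.38 to 0.764 CPM in untreated libraries. Of these 8, only 3 passed the filter on low counts, Rgs5, Pdgfrb and Cspg4. Rgs5 and Pdgfrb were called higher by edgeR without the block, and Cspg4 only with it. The other genes, Myh11, Des, Actg2, Lmod1 and Myocd, were too low to be tested. Myocd, the smooth muscle coactivator of SRF, was at 0 in both groups. The 8 fibroblast markers summed to 55.1 to 70.5 CPM after TGFb1 and 35.7 to 59.6 CPM without it, with Col1a1 called higher, Col1a2 higher with the block described above, and Thy1 at 0 throughout. The 7 epithelial markers summed to 2130 to 3950 CPM after TGFb1 and 3210 to 4710 CPM without it. None of the 7 was called by edgeR without the block, with 2 at an unadjusted p under 0.05. With the block 4 of the 7 were called lower, Krt8 (log2 -0.36), Krt18 (-0.60), Krt19 (-0.76) and Epcam (-0.27), and 0 higher. The 6 leukocyte markers summed to 4.28 to 10.7 CPM after TGFb1 and 3.85 to 12.2 CPM without it, with Ptprc called lower (log2 -1.95, adjusted p = 0.0179) and Cd3e at 0 in both groups. The part of other cells, and of the lower epithelial transcripts, in the results for Acta2 and the other members, with or without the block, was not tested.

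The cytoplasmic actins, which make up the bulk of filaments in non-muscle cells, differed less. Actb had 3200, 3240 and 2860 CPM in TGFb1 cultures and 2680, 2450 and 2300 CPM in untreated cultures, without overlap. Its change of 1.24-fold (log2 0.31 ± 0.10) had an adjusted p of 0.109 in edgeR, of 0.00265 with the replicate block and of 0.00879 with all 18 libraries in a fit. Actg1 had 1590, 1490 and 1530 CPM after TGFb1 and 1340, 1280 and 1520 CPM without it, which overlap, and was not called in either fit.

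Of the 7 crosslinkers and adhesion linkers, 3 rose. Tln1, talin, which binds and activates integrins, had 469, 449 and 507 CPM after TGFb1 and 373, 304 and 312 CPM in untreated cells (1.42-fold, log2 0.51 ± 0.11, adjusted p = 0.0339 by edgeR). Actn1, an alpha-actinin that bundles filaments, had 562, 494 and 551 CPM after TGFb1 and 367, 340 and 416 CPM without it (1.42-fold, log2 0.50 ± 0.11, adjusted p = 0.03). Flna, filamin A, which joins filaments into networks, had 1870, 1760 and 1970 CPM after TGFb1 and 1500, 1280 and 1380 CPM without it (1.33-fold, log2 0.41 ± 0.10, adjusted p = 0.0418). In each of the 3 genes all TGFb1 libraries lay above all untreated ones. Leaving out a library ended the Flna call in each of the 6 cases (adjusted p = 0.0533 to 0.176). It ended the Actn1 call for every library other than untreated replicate 3 (0.0732 to 0.13), and the Tln1 call for every library other than untreated replicate 1 (0.0637 to 0.15).

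The other 4 genes of that role were called in none of the 13 alternatives. Actn4, Vcl, Zyx and Pxn had log2 changes of 0.12, -0.04, 0.06 and -0.01. Vinculin and zyxin varied together with the culture number: Vcl had 299, 226 and 162 CPM after TGFb1 and 292, 222 and 182 CPM in untreated cells, and Zyx had 235, 161 and 135 CPM after TGFb1 and 207, 145 and 150 CPM without it. Culture 1 was the highest in both groups for both genes.

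In the calponin family, whose members bind along the filament, 0 of 4 tested genes passed edgeR without the block, and 0 had an unadjusted p under 0.05. Tagln2, the broadly expressed relative of Tagln, had 544, 527 and 500 CPM after TGFb1 and 532, 447 and 377 CPM without it. Tagln had 20, 10 and 6 counts after TGFb1 and 23, 10 and 9 counts without it. Thus Tagln, unlike Acta2, showed no higher counts with TGFb1. Cnn3 had 506, 443 and 371 CPM after TGFb1 and 423, 363 and 342 CPM in untreated cells, higher within each pair, and Cnn2 had 270, 232 and 163 CPM after TGFb1 and 304, 259 and 252 CPM without it, lower within each pair. With the replicate block Cnn3 was called higher (log2 0.20 ± 0.05, adjusted p = 0.0173) and Cnn2 lower (log2 -0.34 ± 0.10, adjusted p = 0.0288). Cnn1 had 4, 1 and 0 counts after TGFb1 and 2, 0 and 4 counts without it.

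The tropomyosins, which coat filaments and govern myosin access, and caldesmon all had positive changes, and 0 of the 5 passed edgeR without the block or had an unadjusted p under 0.05. Tpm1 had 997, 632 and 507 CPM after TGFb1 and 632, 463 and 471 CPM in untreated cells, so that the groups overlap although each pair was higher with TGFb1. Tpm2 had 10.4, 5.28 and 4.47 CPM after TGFb1 and 6.03, 4.02 and 3.39 CPM without it. Both showed their largest value in culture 1. With the replicate block, Tpm1 (log2 0.39 ± 0.10, adjusted p = 0.0192), Tpm2 (0.52 ± 0.12, 0.0116), Tpm3 (0.20 ± 0.06, 0.0294) and Cald1 (0.17 ± 0.04, 0.0201) were called higher. Tpm4, at 804, 701 and 654 CPM after TGFb1 and 718, 706 and 607 CPM without it, was called in neither fit.

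Within myosin II, edgeR called 0 genes without the block. The heavy chain Myh9 was called higher in 5 of 13 alternatives (DESeq2, limma-voom, the stricter filter, all 18 libraries in a fit, and the block), and the kinase Mylk lower in 2 (all 18 libraries in a fit, and the block). Myh9 had 1240, 1060 and 1050 CPM after TGFb1 and 891, 785 and 783 CPM without it, with no overlap (1.35-fold, log2 0.43 ± 0.11, adjusted p = 0.0513). With the block its adjusted p was 0.000406. Mylk, the kinase that switches on myosin II through its light chain, had 10.3, 6.02 and 2.42 CPM after TGFb1 and 18.5, 16 and 9.72 CPM in untreated cells, which overlap through culture 1. Its values were lower with TGFb1 in each pair (log2 -0.84, -1.41 and -2), with an adjusted p of 0.195 without the block and of 0.00248 with it (log2 -1.40 ± 0.20). Myh10 and Myl6 differed by -0.02 and -0.01 on the log2 scale. Myl9 had 14, 5 and 0 counts after TGFb1 and 10, 5 and 8 counts without it.

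The membrane linkers ezrin, moesin and radixin tie filaments to the plasma membrane, and moesin rose. Msn had 1790, 1570 and 1810 CPM after TGFb1 and 1310, 1090 and 1080 CPM in untreated cells, without overlap (1.47-fold, log2 0.56 ± 0.12, adjusted p = 0.0289 by edgeR). Ezr, the form typical of epithelial microvilli, had 373, 331 and 289 CPM after TGFb1 and 584, 446 and 438 CPM in untreated cells, also without overlap. Its log2 change of -0.58 ± 0.15 had an adjusted p of 0.062, and of 0.000345 with the block, which gave -0.57 ± 0.06. DESeq2 (0.0117), the stricter filter (0.0431) and all 18 libraries in a fit (0.000356) also called it lower. Rdx had 233, 212 and 247 CPM after TGFb1 and 248, 220 and 230 CPM without it, which overlap. The Msn call was lost without any library other than untreated replicate 1 (adjusted p = 0.0616 to 0.133). The difference between Msn and Ezr in their response was not tested.

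Neither turnover gene was called higher. Cfl1, cofilin, which severs filaments, had 1180, 1000 and 886 CPM after TGFb1 and 1160, 1000 and 877 CPM without it. Pfn1, profilin, which delivers actin monomers to growing ends, had 421, 388 and 326 CPM after TGFb1 and 540, 451 and 403 CPM in untreated cells. It was lower within each pair, and of the 13 alternatives the block alone called it lower (log2 -0.31 ± 0.05, adjusted p = 0.00261).

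Among the LIM proteins, Pdlim7 (Enigma, a PDZ-LIM scaffold of actin bundles) gave the smallest p of all members. It had 146, 134 and 162 CPM after TGFb1 and 76.4, 61.1 and 61.1 CPM in untreated cells, a 2.2-fold difference without overlap (log2 1.14 ± 0.13, adjusted p = 0.00548 by edgeR). Its call held in all 13 alternatives, including the removal of any of the 6 libraries, with adjusted p values up to 0.0396. Pdlim1 (CLP36, which binds alpha-actinin) had 87, 51 and 46 counts after TGFb1 and 23, 24 and 24 counts without it (1.05, 0.597 and 0.663 CPM against 0.274, 0.314 and 0.287 CPM), a change of 2.6-fold (log2 1.38 ± 0.34, adjusted p = 0.0459). That call was lost in all 6 removals of a library (0.0834 to 0.166), with limma-voom (0.0503) and without the filter on low counts (0.0719). Fhl2 had 102, 78.7 and 78.1 CPM after TGFb1 and 63.6, 58.4 and 65.1 CPM without it, again without overlap, with an adjusted p of 0.0826, of 0.00462 with the block, of 0.0285 by DESeq2 and of 0.00206 with all 18 libraries in a fit. Pdlim5, Lima1 and Fhl1 were not called in any fit.

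Of the transcription factor and its 2 coactivators, edgeR called 0 without the block, with Mkl1 alone at an unadjusted p under 0.05. Mkl1 had 85.3, 75.3 and 58.1 CPM after TGFb1 and 50.7, 45.5 and 39.4 CPM in untreated cells, without overlap (1.59-fold, log2 0.67 ± 0.17, adjusted p = 0.0566 by edgeR). With the replicate block the adjusted p was 0.000258, and it was also called by DESeq2 (0.00672), the stricter filter (0.0443), all 18 libraries in a fit (0.000536) and without TGFb1 replicate 3 (0.0344). Srf itself had 58.3, 68.7 and 59.3 CPM after TGFb1 and 69.2, 72.4 and 76.3 CPM without it: all 3 TGFb1 values lay below the untreated ones, with adjusted p values of 0.21 without and 0.0237 with the block (log2 -0.24 ± 0.07). Mkl2 had 49.8, 53.4 and 54.7 CPM after TGFb1 and 46.7, 47.3 and 46.1 CPM without it, and was not called. Of the 8 tested members with a CArG box in the promoter window, edgeR called 0 without the block, with 1 (Fhl2) at an unadjusted p under 0.05; with the block Fhl2 was called higher and Cnn2 and Srf lower, where 22.4% of all genes were higher and 22.5% lower.

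**Figure D3:**
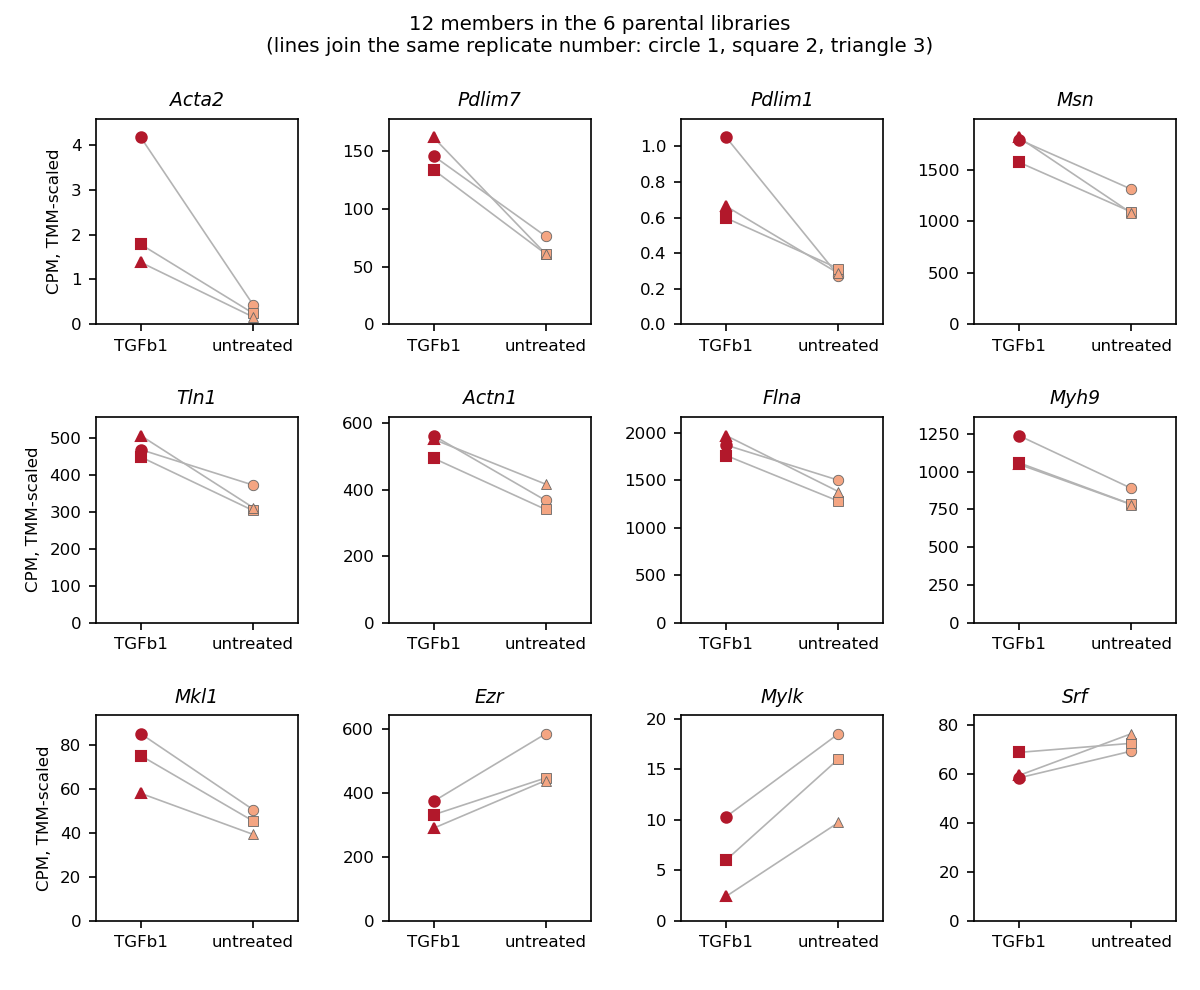
TMM-scaled CPM of 12 members in the TGFb1 libraries (left in each panel) and the untreated libraries (right), on linear axes from 0, with a line joining cultures of the same number. All 3 lines fall towards untreated for Acta2, the PDZ-LIM genes, Msn, Tln1, Actn1, Flna, Myh9 and Mkl1, and all 3 rise towards untreated for Ezr, Mylk and Srf.

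Neighbouring genes of the pathway were counted in the same fit. Of 27 genes of actin assembly and bundling, Tmsb10 alone was called, higher by 1.33-fold. Of 8 other contractile genes tested, Tns1, a tensin that links actin to integrins (5.34-fold), and Palld, a stress fibre scaffold (2.85-fold), were higher. The 8 SRF targets of the immediate early kind, which use the ternary complex factors in place of the Mkl coactivators, had 0 higher and 2 lower, Egr1 (log2 -1.62) and Egr3 (log2 -2.01). The 3 tested genes of the ternary complex factor list had none called by edgeR, 1 at an unadjusted p under 0.05 and 1 with the block. The calls without the block stand against 6.14% of all genes higher and 4.92% lower. With the block the assembly list had 5 higher and 7 lower, the other contractile list 4 higher and 1 lower, the immediate early list 0 higher and 3 lower, and the ternary complex factor list 1 higher and 0 lower, against 22.4% and 22.5% of all genes.

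On collagen I members both rose and fell, at shares not far from those of all genes, and the counts are no result about the list. In the Wisp1 line 8 of 36 members (22.2%) were higher and 9 (25%) lower on collagen than on plastic, where 21.3% of the 13953 genes tested were higher and 19.1% lower. In the EV line 10 (27.8%) were higher and 4 (11.1%) lower, where 19.2% of all genes were higher and 17.3% lower. The median log2 change of the members was -0.012 in the Wisp1 line and 0.028 in the EV line, against 0.01 and 0.001 over all genes. In both lines Actn4, Pxn, Myl6, Mylk, Ezr and Pdlim5 were higher and Tagln, Tpm1, Cnn3 and Rdx lower. These 10 are 58.8% of the 17 called in the Wisp1 line and 71.4% of the 14 called in the EV line, and no member was called in opposite directions. Over all genes 4084 were called the same way in both lines, 72.4% of the 5641 called in the Wisp1 line and 80.2% of the 5095 called in the EV line, and 1 in opposite directions; the members' overlap is thus not above that of all genes. The collagen and plastic libraries also differed in other ways: reads that fell on more than 1 gene were 1.79 to 2.08% on collagen and 1.35 to 1.95% on plastic, and substrate cannot be told apart from any difference in how these sets of libraries were handled.

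Markers of some cell types also differed with the substrate. Leukocyte markers, at low levels, summed to 7.71 to 8.75 CPM on collagen and 4.25 to 6.01 CPM on plastic in the Wisp1 line, and to 6.13 to 8.17 CPM on collagen and 4.06 to 5.62 CPM on plastic in the EV line, with Cd3e at 0 in all 4 groups. Fibroblast markers summed to 26.8 to 33.4 CPM on collagen and 17.1 to 19.4 CPM on plastic in the Wisp1 line, and to 25.3 to 30.6 CPM on collagen and 17 to 22.8 CPM on plastic in the EV line, with Thy1 and Lum at 0 in all 4. Epithelial markers summed to 2960 to 3860 CPM on collagen and 2630 to 2920 CPM on plastic in the Wisp1 line, and to 3040 to 3370 CPM on collagen and 2630 to 2830 CPM on plastic in the EV line. None of these 6 pairs of ranges overlapped, and the share of all genes without overlap is not given here. Endothelial markers did overlap, at 0.119 to 0.158 CPM on collagen and 0.137 to 0.318 CPM on plastic in the Wisp1 line. In the EV line they summed to 0.139 to 0.323 CPM on collagen and 0.169 to 0.234 CPM on plastic. The smooth muscle and pericyte markers, given below with Acta2, overlapped in both lines too. In the Wisp1 line Pdgfra, Cd68, Krt8 and Krt18 were called higher and Col1a2 and Cdh1 lower, and in the EV line Pdgfra, Emr1, Krt8 and Krt18 higher and Col1a2, Col3a1, Cdh1 and Cldn7 lower. The part of other cells in the collagen results was not tested.

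**Figure D4:**
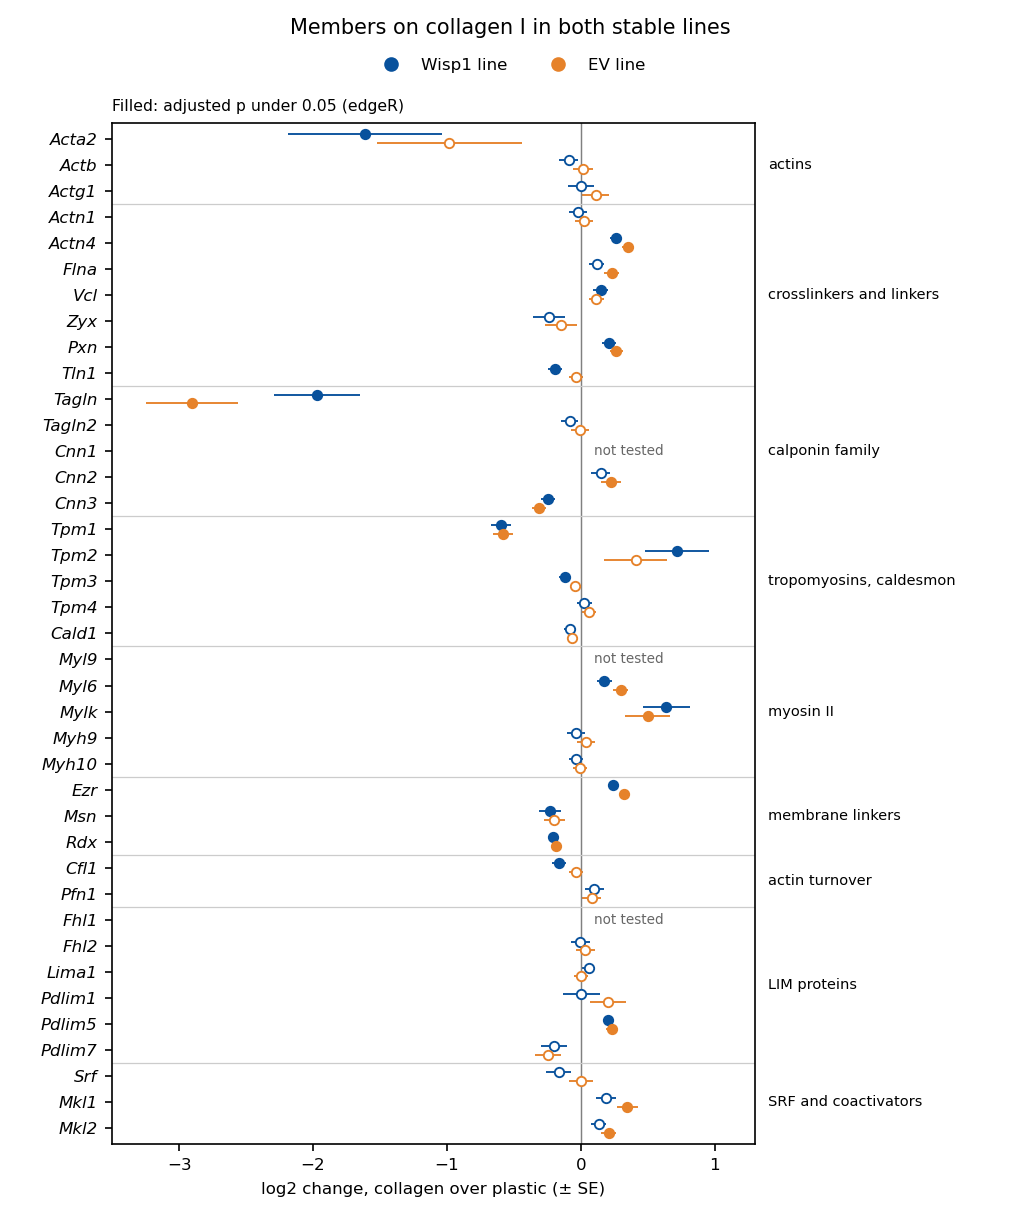
The log2 change on collagen over plastic for each member, with its standard error from the edgeR fit, in the Wisp1 line (blue) and the EV line (orange); filled points passed an adjusted p of 0.05. Tagln lies at -1.97 in the Wisp1 line and -2.90 in the EV line, Tpm1 at -0.59 and -0.58, and most other points lie within 0.5 of 0.

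Tpm1, a tropomyosin that coats stress fibres, fell on collagen in both lines. In the Wisp1 line it had 516, 619 and 563 CPM on collagen and 826, 865 and 920 CPM on plastic (log2 -0.59 ± 0.07, adjusted p = 4.01e-05 by edgeR). The EV line had 514, 580 and 554 CPM on collagen and 779, 808 and 929 CPM on plastic (log2 -0.58 ± 0.07, adjusted p = 5.29e-05). The groups did not overlap in either line, and the call held in all 14 alternatives of each. Tpm3 was also called lower in the Wisp1 line (log2 -0.12 ± 0.04, adjusted p = 0.0337) and not in the EV line (log2 -0.04, adjusted p = 0.463). Tpm4 was not called in any fit, and Tpm2 had 2.96, 2.5 and 1.69 CPM on collagen and 1.27, 1.23 and 1.9 CPM on plastic in the Wisp1 line, which overlap. There the Tpm2 change was log2 0.72 ± 0.24 with an adjusted p of 0.0288, lost without Wisp1 plastic replicate 1 (0.101) or 2 (0.104) or Wisp1 collagen replicate 1 (0.134) or 2 (0.0645). For Tpm2 the EV line had 2.15, 2.2 and 1.63 CPM on collagen and 1.11, 1.53 and 1.87 CPM on plastic, and was not called (adjusted p = 0.192).

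Tagln fell in both lines too, at very low counts. In the Wisp1 line it had 10, 11 and 5 counts on collagen (0.122, 0.217 and 0.0994 CPM), against 18, 25 and 33 counts on plastic (0.477, 0.683 and 0.579 CPM), a 3.93-fold lower level (log2 -1.97 ± 0.32, adjusted p = 0.000308). The EV line had 6, 5 and 4 counts on collagen (0.108, 0.0753 and 0.0429 CPM), against 24, 39 and 30 counts on plastic (0.578, 0.506 and 0.58 CPM), a 7.48-fold lower level (log2 -2.90 ± 0.35, adjusted p = 2.93e-05). The groups did not overlap in either line. Its relative Cnn3 had 328, 296 and 278 CPM on collagen and 353, 368 and 365 CPM on plastic in the Wisp1 line (log2 -0.24 ± 0.05, adjusted p = 0.00263). For Cnn3 the EV line had 298, 293 and 295 CPM on collagen and 350, 381 and 388 CPM on plastic (log2 -0.31 ± 0.05, adjusted p = 0.000487). Cnn2 went the other way in the EV line, with 226, 242 and 229 CPM on collagen and 195, 188 and 225 CPM on plastic (log2 0.23 ± 0.07, adjusted p = 0.0251), a call lost without EV plastic replicate 1 (0.0855) or 2 (0.114) or EV collagen replicate 2 (0.0968). In the Wisp1 line Cnn2 had 249, 265 and 234 CPM on collagen and 216, 217 and 255 CPM on plastic and was not called (0.113).

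Acta2 was called lower on collagen in the Wisp1 line from few counts: 4, 5 and 4 on collagen and 3, 13 and 14 on plastic, at depths that left the groups overlapping (0.0489, 0.0986 and 0.0795 CPM, against 0.0795, 0.355 and 0.246 CPM). The log2 change was -1.61 ± 0.57 with an adjusted p of 0.0374 by edgeR, and the call was lost with DESeq2 (0.0612), with limma-voom (0.0655), and without Wisp1 plastic replicate 2 (0.153) or 3 (0.105) or Wisp1 collagen replicate 1 (0.138) or 3 (0.0612). Acta2 in the EV line had 3, 7 and 8 counts on collagen and 3, 12 and 14 on plastic, and was not called (0.174). The smooth muscle and pericyte markers summed to 0.219 to 0.296 CPM on collagen and 0.238 to 0.355 CPM on plastic in the Wisp1 line. The sums in the EV line were 0.108 to 0.386 CPM on collagen and 0.265 to 0.444 CPM on plastic. Myocd and Lmod1 were at 0 in all 4 of these groups, and the part of other cells in these low counts was not tested. Actb and Actg1 were not called on collagen in either line.

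**Figure D5:**
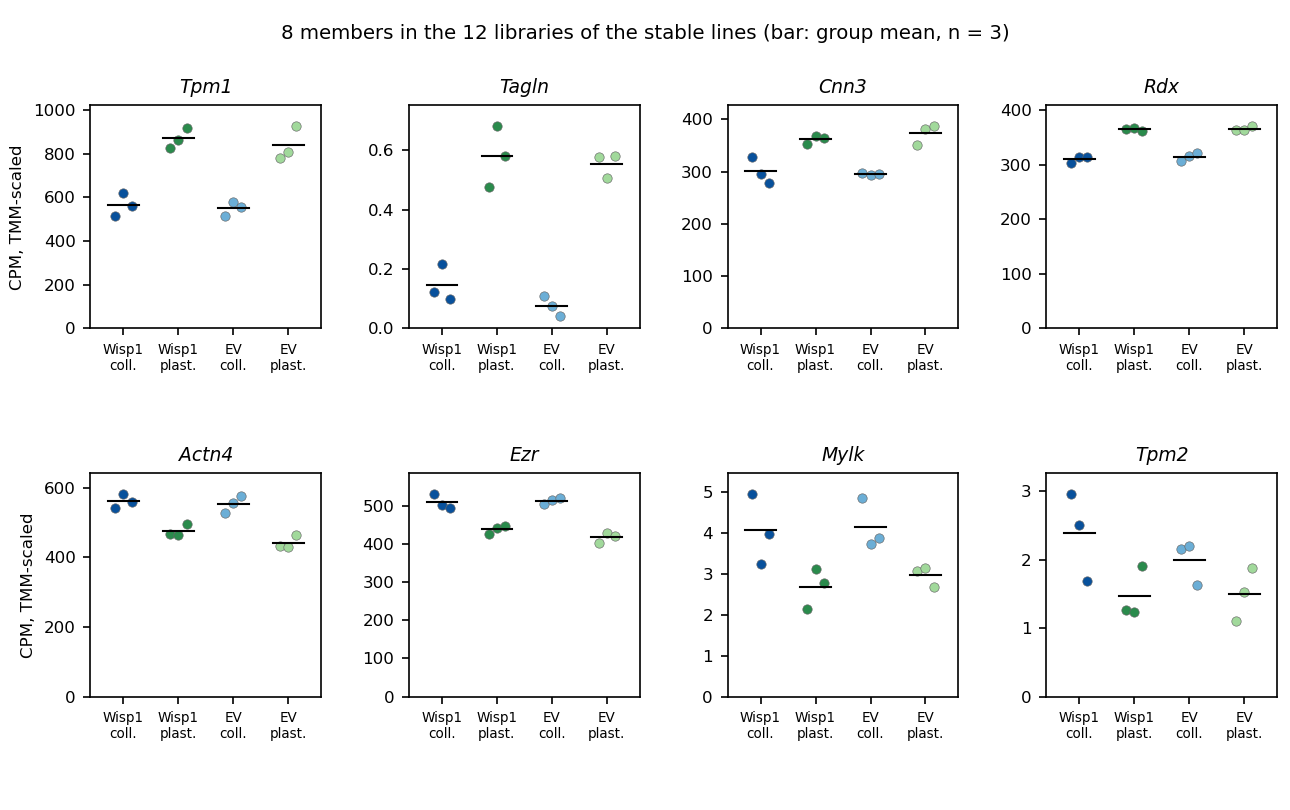
TMM-scaled CPM of 8 members in the libraries of the Wisp1 line and of the EV line, collagen left of plastic within each line, on linear axes from 0; the bar is the mean of 3 cultures. Tpm1, Tagln, Cnn3 and Rdx lie lower and Actn4, Ezr and Mylk higher on collagen in both lines without overlap, while the Tpm2 groups overlap.

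Among crosslinkers and linkers, Actn4 and Pxn rose in both lines. Actn4 bundles filaments as Actn1 does. Actn4 had 541, 583 and 559 CPM on collagen and 468, 464 and 496 CPM on plastic in the Wisp1 line (1.2-fold, log2 0.27 ± 0.04, adjusted p = 0.000437 by edgeR). The EV line had 528, 556 and 576 CPM on collagen and 432, 429 and 465 CPM on plastic (1.28-fold, log2 0.35 ± 0.04, adjusted p = 5.34e-05). Its call held in all 14 alternatives in each line. Paxillin, a scaffold of focal adhesions, had 194, 179 and 173 CPM on collagen and 152, 158 and 170 CPM on plastic in the Wisp1 line (log2 0.21 ± 0.05, adjusted p = 0.00447). Pxn in the EV line had 188, 184 and 179 CPM on collagen and 152, 153 and 163 CPM on plastic (log2 0.27 ± 0.05, adjusted p = 0.0011). Neither gene's groups overlapped in either line. Actn1, the close relative of Actn4, was not called in either line (log2 -0.02 and 0.02), nor was Zyx.

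Flna, Vcl and Tln1 were called by edgeR in a single line each. Flna had 2050, 2270 and 2280 CPM on collagen and 1870, 1810 and 2060 CPM on plastic in the EV line (log2 0.23 ± 0.06, adjusted p = 0.0073), and in the Wisp1 line its adjusted p was 0.122. Tln1 had 394, 435 and 406 CPM on collagen and 479, 466 and 496 CPM on plastic in the Wisp1 line (log2 -0.19 ± 0.05, adjusted p = 0.0106), and in the EV line its adjusted p was 0.623. Vcl had 260, 278 and 290 CPM on collagen and 252, 244 and 266 CPM on plastic in the Wisp1 line, which overlap (log2 0.15 ± 0.06, adjusted p = 0.0496). The Vcl call was lost in 9 of 14 alternatives, among them DESeq2 (0.0591), limma-voom (0.0547) and the removal of Wisp1 plastic replicate 1 (0.113) or 2 (0.171) or Wisp1 collagen replicate 2 (0.108) or 3 (0.169). The test of the difference between the lines, given with the Wisp1 results, called none of the 3 genes.

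Of the membrane linkers, Ezr rose and Rdx fell on collagen in both lines. Ezr had 531, 502 and 493 CPM on collagen and 425, 442 and 447 CPM on plastic in the Wisp1 line (1.18-fold, log2 0.24 ± 0.04, adjusted p = 0.000239). The EV line had 504, 515 and 520 CPM on collagen and 403, 428 and 421 CPM on plastic (1.25-fold, log2 0.33 ± 0.04, adjusted p = 2.61e-05). Ezr was thus higher on collagen without overlap in both lines. Rdx had 303, 314 and 314 CPM on collagen and 366, 367 and 362 CPM on plastic in the Wisp1 line (log2 -0.21 ± 0.03, adjusted p = 0.000305). Rdx in the EV line had 307, 316 and 322 CPM on collagen and 364, 363 and 372 CPM on plastic (log2 -0.19 ± 0.03, adjusted p = 0.000713). Msn had 1050, 1290 and 1140 CPM on collagen and 1340, 1320 and 1510 CPM on plastic in the Wisp1 line (log2 -0.23 ± 0.08, adjusted p = 0.0363). The Msn call was lost without Wisp1 plastic replicate 1 (0.0585) or 3 (0.143) or Wisp1 collagen replicate 1 (0.142) or 3 (0.085), and in the EV line its log2 change was -0.20 (adjusted p = 0.0714).

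In myosin II, a light chain and the light chain kinase rose and the heavy chains were not called. Myl6, the essential light chain, had 510, 573 and 499 CPM on collagen and 471, 449 and 507 CPM on plastic in the Wisp1 line, which overlap (log2 0.18 ± 0.06, adjusted p = 0.0261). That call was lost without Wisp1 plastic replicate 1 (0.0739) or 2 (0.117) or Wisp1 collagen replicate 2 (0.134). In the EV line Myl6 had 517, 545 and 527 CPM on collagen and 430, 420 and 469 CPM on plastic, without overlap (log2 0.30 ± 0.06, adjusted p = 0.00133). Mylk had 4.96, 3.25 and 3.98 CPM on collagen and 2.15, 3.12 and 2.77 CPM on plastic in the Wisp1 line (log2 0.64 ± 0.17, adjusted p = 0.00935), lost without Wisp1 collagen replicate 1 (0.0511). In the EV line Mylk had 4.85, 3.73 and 3.87 CPM on collagen and 3.08, 3.15 and 2.69 CPM on plastic (log2 0.50 ± 0.16, adjusted p = 0.0294). Its groups did not overlap in either line, and the EV call was lost without EV plastic replicate 1 (0.0575), 2 (0.0526) or 3 (0.0975) or EV collagen replicate 1 (0.114). Myh9 and Myh10 were not called in any fit for collagen.

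Of the LIM proteins, Pdlim5 alone was called by edgeR. It had 168, 170 and 169 CPM on collagen and 144, 147 and 157 CPM on plastic in the Wisp1 line (log2 0.21 ± 0.04, adjusted p = 0.00149). In the EV line it had 165, 171 and 170 CPM on collagen and 139, 146 and 154 CPM on plastic (log2 0.23 ± 0.04, adjusted p = 0.000671), again without overlap. Pdlim7 had 67.3, 72.4 and 61 CPM on collagen and 73.2, 70.4 and 91.2 CPM on plastic in the Wisp1 line, and 67.4, 69 and 65.8 CPM on collagen and 76.8, 74.7 and 92.5 CPM on plastic in the EV line, and was not called (adjusted p = 0.122 and 0.0675), although 3 of 14 alternatives called it lower in the EV line.

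Mkl1 and Mkl2 rose on collagen in the EV line, and Srf was not called in either line. Mkl1 had 63.3, 66.8 and 64.1 CPM on collagen and 49.4, 47.9 and 58.5 CPM on plastic in the EV line (log2 0.35 ± 0.08, adjusted p = 0.00286). Mkl2 had 49.9, 52.5 and 55.8 CPM on collagen and 43.5, 45.9 and 50.3 CPM on plastic there (log2 0.21 ± 0.06, adjusted p = 0.0121), a call lost without EV plastic replicate 1 (0.0609) or EV collagen replicate 3 (0.0535). In the Wisp1 line the log2 changes were 0.19 for Mkl1 and 0.13 for Mkl2 (adjusted p = 0.0662 and 0.0826). Srf had 71.2, 82.3 and 78 CPM on collagen and 87.3, 81.8 and 95.4 CPM on plastic in the Wisp1 line, and 72.8, 79.3 and 82.2 CPM on collagen and 74.4, 71.6 and 93 CPM on plastic in the EV line, overlapping in both. Of the remaining calls, Cfl1 was lower on collagen in the Wisp1 line (log2 -0.16 ± 0.05, adjusted p = 0.0214). The Cfl1 call was lost without Wisp1 plastic replicate 3 (0.0866) or Wisp1 collagen replicate 1 (0.0762), and the Tpm3 call given above without any Wisp1 plastic replicate (0.0508 to 0.123) or Wisp1 collagen replicate 1 (0.132). With all 18 libraries in a single fit, 4 members (Actn4, Tagln, Tpm1 and Rdx) kept their call in the Wisp1 line and 6 (those 4 with Pxn and Cnn3) in the EV line. The calls lost there in the Wisp1 line were Acta2, Vcl, Pxn, Tln1, Cnn3, Tpm2, Tpm3, Myl6, Mylk, Ezr, Msn, Cfl1 and Pdlim5 (adjusted p = 0.0597 for Pxn to 0.717 for Vcl). In the EV line they were Flna, Cnn2, Myl6, Mylk, Ezr, Pdlim5, Mkl1 and Mkl2 (0.0645 for Ezr to 0.475 for Mylk).

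Among genes of actin assembly, which build branched and bundled filaments, upward calls outnumbered downward ones on collagen. Of the 27 tested, 13 were higher and 5 lower in the Wisp1 line, and 15 higher and 3 lower in the EV line. The capping and severing protein Gsn was higher by 1.49-fold in the Wisp1 line and 1.46-fold in the EV line. Wasl (N-WASP), which activates the actin-branching complex, was higher by 1.37-fold and 1.31-fold in these lines, and the complex subunit Arpc1b by 1.33-fold and 1.4-fold. Of the 8 immediate early SRF targets, 4 were higher and 0 lower in the Wisp1 line and 2 higher and 0 lower in the EV line. Egr3 was higher by 2.94-fold in the Wisp1 line and 2.86-fold in the EV line, and Egr2 by 2.64-fold and 2.34-fold. Of 7 other contractile genes tested, 1 was higher and 2 lower in each line. Over all genes 21.3% were higher and 19.1% lower in the Wisp1 line, and 19.2% higher and 17.3% lower in the EV line. The lists were chosen with earlier results of these data known and are not matched for level. These counts are thus a description and no test of the lists.

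Wisp1 overexpression moved no member past the threshold on either substrate in edgeR without the replicate block. On plastic 0 of 36 members were called, where 0.0143% of all genes were, and on collagen 0 of 36, where 0.0717% of all genes were. DESeq2 and limma-voom also called 0 members on each substrate. At an unadjusted p under 0.05 edgeR gave 4 members higher on plastic and 1 on collagen, and 0 lower on either, where 3.2% of all genes were higher and 2.69% lower on plastic, and 3.1% higher and 1.96% lower on collagen. The log2 changes ran between -0.16 (Mylk) and 0.42 (Acta2) on plastic, and between -0.21 (Acta2) and 1.00 (Tagln) on collagen, the extremes being genes of few counts. The median was 0.061 on plastic and -0.005 on collagen, against -0.001 and 0 over all genes.

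The 3 members of smallest p on plastic, none of them called without the block, were Tln1, Cnn2 and Actn4. Tln1 had 479, 466 and 496 CPM in the Wisp1 line and 430, 424 and 460 CPM in the EV line, without overlap (log2 0.13 ± 0.05, adjusted p = 0.803). Cnn2 had 216, 217 and 255 CPM in the Wisp1 line and 195, 188 and 225 CPM in the EV line (log2 0.17 ± 0.07, adjusted p = 0.808). Actn4 had 468, 464 and 496 CPM in the Wisp1 line and 432, 429 and 465 CPM in the EV line (log2 0.10 ± 0.05, adjusted p = 0.825). In Cnn2 and Actn4 the third EV culture lay among the Wisp1 values, and in each of the 3 genes each same-numbered pair was higher in the Wisp1 line.

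Since same-numbered Wisp1 and EV cultures of a substrate deviate together, the fit with that pairing as a block bears on this comparison. On plastic it called 11 of 36 members higher (30.6%) and 0 lower, where 2.08% of all genes were higher and 1.08% lower. This contrast is no test of the list, whose members are mostly abundant and were chosen with earlier results of these data known. The 11 were Actb, Actg1, Actn4, Flna, Zyx, Tln1, Cnn2, Myl6, Myh9, Cfl1 and Srf. Their increases were small: Zyx had the largest, with 171, 168 and 217 CPM in the Wisp1 line and 142, 146 and 193 CPM in the EV line (1.16-fold, log2 0.21 ± 0.03, adjusted p = 0.00103). Cnn2 followed at 1.13-fold (adjusted p = 0.00115), and Srf had 87.3, 81.8 and 95.4 CPM in the Wisp1 line and 74.4, 71.6 and 93 CPM in the EV line (1.11-fold, adjusted p = 0.0344). Actb had 3460, 3340 and 3800 CPM in the Wisp1 line and 3210, 2990 and 3630 CPM in the EV line (1.08-fold, adjusted p = 0.0189). A block over the replicate numbers of all 4 groups together called 0 members, so the result depends on pairing within the substrate, which the labels do not explain. Of the 7 tested members with a CArG box, 4 (Actg1, Cnn2, Myl6 and Srf) were among the 11, beside 11 of all 36 members. For Wisp1 on collagen the block called 1 of these 7 higher and 0 lower. For collagen over plastic, edgeR without the block called 2 of the 7 higher and 0 lower in each line, where 21.3% (Wisp1 line) and 19.2% (EV line) of all genes were higher. These counts are no test of the box. In the block fit on plastic the epithelial markers Epcam (log2 -0.22), Cldn7 (-0.34) and Esrp1 (-0.27) and the fibroblast collagen gene Col3a1 (-3.79) were called lower in the Wisp1 line, and their part in these results was not tested.

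On collagen the 3 members of smallest p were Tagln, Vcl and Lima1, none of them called without the block. Tagln had 10, 11 and 5 counts in the Wisp1 line and 6, 5 and 4 counts in the EV line, and its CPM overlapped (log2 1.00 ± 0.44, adjusted p = 0.947). Vcl had 260, 278 and 290 CPM in the Wisp1 line and 238, 257 and 266 CPM in the EV line (log2 0.12 ± 0.06, adjusted p = 0.98). Lima1 (EPLIN, which crosslinks and steadies filaments) had 54.6, 55.2 and 53.9 CPM in the Wisp1 line and 50.8, 52.5 and 50.7 CPM in the EV line (log2 0.09 ± 0.05, adjusted p = 0.996). With the block within the substrate 1 member, Vcl, was called higher (1.09-fold, adjusted p = 0.014) and 0 lower, where 1.63% of all genes were higher and 0.939% lower. Esrp1 (log2 -0.26) and Col3a1 (-3.88) were again called lower in that fit.

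The effect of Wisp1 on collagen was set against that on plastic by an interaction term. It called 0 of the 36 members and 0% of all genes in edgeR, with 0 members at an unadjusted p under 0.05, and DESeq2 and limma-voom called 0 as well. With the block within each substrate 12 members had an unadjusted p under 0.05, all 12 with a Wisp1 over EV change that was lower on collagen than on plastic, and 0 passed the adjusted threshold. Over all genes that fit gave 6.92% higher and 7.7% lower at an unadjusted p under 0.05, and called 0.502% in either direction. In edgeR without the block the members of smallest p were Tln1 (log2 -0.16 ± 0.08, adjusted p = 0.973), Tagln (log2 0.93 ± 0.51, adjusted p = 0.973) and Cfl1 (log2 -0.13 ± 0.07, adjusted p = 0.973). Tln1 within pairs was higher in the Wisp1 line on plastic (log2 0.15, 0.14 and 0.11) and had log2 ratios of 0.04, 0 and -0.11 on collagen. Cfl1 had pair ratios of -0.04, 0.05 and -0.05 on collagen and 0.10, 0.16 and 0.09 on plastic. The difference between substrates in how many members were called, 11 on plastic and 1 on collagen with the block, is thus not shown to be a difference in effect. Among the neighbouring lists 0 genes of the actin assembly, immediate early, ternary complex factor and other contractile lists were called by edgeR for Wisp1 on either substrate. At an unadjusted p under 0.05 there were 1 assembly gene on plastic and 1 on collagen. With the block 1 assembly gene was lower on plastic.

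The parental and stable cells differ in vector, selection and medium change, so levels between them are given as a description without a test. Mylk had 9.72 to 18.5 CPM in untreated parental cells and 2.69 to 3.15 CPM in EV cells on plastic, and Tpm2 had 3.39 to 6.03 CPM and 1.11 to 1.87 CPM in these groups. Pdlim1 ran the other way, at 0.274 to 0.314 CPM in untreated parental cells and 1.18 to 1.23 CPM in EV cells on plastic. Rdx had 220 to 248 CPM in untreated parental cells and 363 to 372 CPM in EV cells. The parts of vector, selection and medium in these differences cannot be told apart.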

How the data were processed

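Poly(A) RNA of 18 4T1 cultures was sequenced from stranded libraries, per the labels' protocols. The authors deposited raw counts per gene for each library. Tools listed in the submitters' processing notes are STAR, HTSeq, BWA, CASAVA, limma and R 3.2.4, with the mm9 build. How strand, annotation and multiply aligned reads were set is not given in the sources used here. Rows that name no gene (reads on no annotated gene, ambiguous or not aligned) held 13.9 to 17.5% of the reads listed, and were left out. Counts over genes ran between 37552858 and 94401699 a library.

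The members and the gene lists were chosen with earlier results of these data known. Groups follow the sample titles. Parental libraries (6) and stable-line libraries (12, 4 group means) were fitted apart with edgeR 4.0.16 in R 4.3.3: TMM scaling, filterByExpr, robust quasi-likelihood F test, Benjamini-Hochberg over all genes tested. Each SE was obtained by dividing the log2 change by the root of its F statistic. CPM were scaled over all 18 libraries. Alternatives were DESeq2 1.42.0, limma-voom (limma 3.58.1), RLE scaling, no filter, 10 CPM in 3 libraries, all 18 libraries in a fit, the replicate block, only the 6 libraries compared, and each library left out. The procedure was tested on simulated data.

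Replicate numbers come from the titles, in which same-numbered TGFb1 and untreated libraries also share a code. Deviations from group means of same-numbered libraries (log2 CPM with 0.5 added) correlated at 0.83, 0.68 and 0.81 between TGFb1 and untreated cells, at 0.21, 0.32 and 0.35 between Wisp1 and EV cells on plastic and at 0.63, 0.28 and 0.47 on collagen, all over 0.1, and these were taken as paired. Collagen and plastic were not (0.2, -0.16 and 0.37 in EV, -0.07, -0.13 and -0.05 in Wisp1). Per-library values are given for up to 12 called members a comparison, or for the 3 of smallest p where fewer than 3 were called; values of further members were added for completeness of the roles.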

Additional observations from a re-analysis of the deposited data

How the results depend on the processing

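Without the replicate block, 7 members were called for TGFb1, where 11.1% of all genes were called. With the block 21 were called, where 44.9% of all genes were. DESeq2 called 11 members, all 18 libraries in a fit 13, and leaving out a library 1 to 4. RLE scaling and limma-voom called 7, the stricter filter 8 and no filter 5. For Wisp1 over EV the replicate block within each substrate called 11 members on plastic and 1 on collagen, where 3.15% and 2.57% of all genes were called. Without it 0 members were called on each, where 0.0143% and 0.0717% of all genes were. Leaving out a library called 0 on both, and the 4-group block called 0. For collagen over plastic, 14 members were called in EV and 17 in Wisp1, where 36.5% and 40.4% of all genes were. All 18 libraries in a fit called 6 members in EV and 4 in Wisp1, and leaving out a library called 11 to 14 in EV and 12 to 15 in Wisp1. The shares of all genes in the other settings are not given here. The interaction called 0 throughout. The causes were not tested, beyond that a removal leaves fewer samples. Over the called members, 516 single values were recomputed: 418 kept direction and side of the threshold, 98 kept direction and lost the call, and 0 reversed. Of 91 recomputed counts, 78 stayed within 1.5 times. Counts of 0 in both fits, as in most settings for Wisp1 and the interaction, were taken as staying. For TGFb1 the count stayed only with RLE scaling, limma-voom, the stricter filter and no filter, and it moved in every other setting. Acta2, Tagln, Cnn1, Myl9 and Fhl1 rest on few counts, so differences in them were hard to detect at this depth.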
